A study of Drosophila melanogaster with 14 samples.

Results

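The knockdown of Lint-O was compared with the control knockdown in cultured Drosophila melanogaster ovarian somatic cells (OSCs), across all genes. The comparison rests on 4 of the 14 samples of the series, 2 libraries of Lint-O RNAi (Lint-O KD) and 2 of EGFP RNAi (EGFP KD), chosen by their labelled treatment. Of 16727 genes in the count table, 8244 had enough reads to be tested. The series also holds 2 libraries each of L(3)mbt KD and Lint-1 KD, which entered the estimate of the spread, and 6 chromatin immunoprecipitation and input samples, which were not analysed here. All 8 RNA libraries came from the same cultured cells, grown in fly-extract medium and treated with RNAi for 48 hours. EGFP is a jellyfish reporter that fly cells lack, so EGFP KD controls for the RNAi treatment itself. A cultured line has no germ cells or other ovarian tissue around it, and RNAi lowers a transcript without removing its gene.

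OSCs derive from the follicle cells that surround the germline of the fly ovary, and they run a somatic form of the piRNA pathway, which silences transposons through PIWI proteins. L(3)mbt, named for malignant brain tumour repeats, is a chromatin protein that keeps germline genes silent in somatic tissue. Lint-1 is a known partner of L(3)mbt in the LINT repressor complex, and the series title places Lint-O among the L(3)mbt interactors. The comparison asks which transcripts depend on Lint-O in these cells.

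The control libraries had 18721044 and 19512731 reads on genes, and those of Lint-O KD 20129922 and 18766301. Values are TMM-scaled CPM, counts scaled to a common library total, given as replicate 1 and replicate 2 of each group, and 3 counts correspond to 0.140 to 0.166 CPM depending on the library. A fold change is on the log2 scale, Lint-O KD minus EGFP KD, with its standard error (SE) and an adjusted p from edgeR's quasi-likelihood test. A gene was called when that p was under 0.05. Whether replicates were separate cultures is not in the labels, so p-values reflect the spread of these samples alone, which may be technical. Levels are not scaled by transcript length and are compared within a gene only.

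The targeted gene was examined first. Lint-O, listed as CG2662 (dm6, X, 2698701 to 2701033), had 19.9 and 18.0 CPM in EGFP KD against 1.153 and 1.99 CPM in Lint-O KD. Both knockdown libraries lay below both controls, with a log2 fold change of -3.59 (SE 0.263, adjusted p = 7.76e-05). The call held in every fit that left out 1 library. The other RNAi targets of the series were not called, though both were at an unadjusted p under 0.05 in the same test. l(3)mbt stood at 187 and 186 CPM in the control and 221 and 216 CPM in Lint-O KD (log2 fold change 0.23, adjusted p = 0.375). Lint-1 stood at 57.6 and 51.2 against 77.5 and 78.0 CPM (0.52, adjusted p = 0.114).

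Most calls were rises. In the fit by group alone, 429 genes were higher in Lint-O KD (5.2% of those tested) and 21 were lower (0.255%), so that 95.3% of the 450 calls (5.46%) were rises. The rises had a median log2 fold change of 2.24, while the median over all tested genes was -0.01. The smallest was 0.51, and the highest among the 371 rises with more than 3 control counts was 7.61, that of cona. A further 33 rises had no control count and 25 had 1 to 3, so that their fitted values depend on the added prior count. With the 33 set at the lower bound given by 3 counts per library, the median of the rises was 2.20. The falls had a median of -1.06, and the smallest was -0.47. All 429 rises and all 21 falls had both knockdown libraries beyond both control libraries. A call makes such separation likely, and its share over all tested genes was not counted. At least a 2-fold change was present in 374 of the rises (4.54% of tested genes) and 11 of the falls (0.133%). Of the rises, 411 were protein-coding genes, 10 were long non-coding RNAs and 6 were antisense RNAs. The sources used here do not give the strand setting of the counting, so values of antisense and overlapping genes are uncertain.

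With 1 library left out, its group has a single library whose spread is taken from the other groups, and fewer genes passed. The rises then numbered 274 without EGFP KD 1, 278 without EGFP KD 2, 272 without Lint-O KD 1 and 261 without Lint-O KD 2, and the falls 5, 6, 4 and 3 in the same order. Of the 429 rises, 219 were called in all 4 of those fits, and of the 21 falls 3 were. None of the 450 changed sign. DESeq2 called 499 rises, which included all 429, and 34 falls, which included 20 of the 21.

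**Figure D1:**
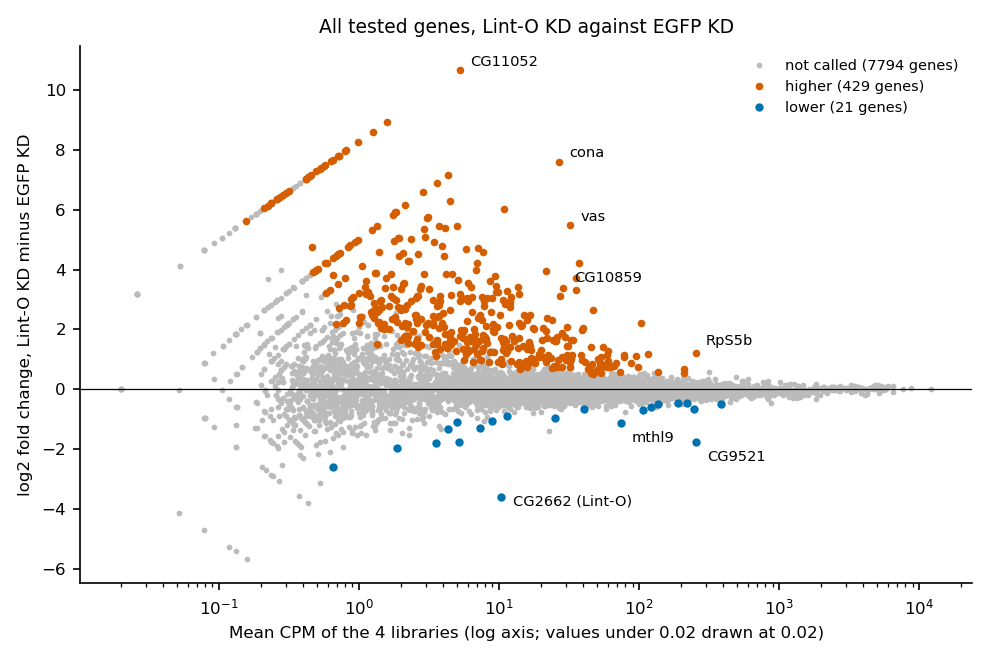
Log2 fold change (Lint-O KD minus EGFP KD) against the mean CPM of the 4 libraries on a log axis, 1 point per tested gene, with the 429 genes called higher in orange, the 21 called lower in blue and the rest in grey. The orange points lie mostly at low mean CPM, and the straight diagonal lines on the left are genes with no count or very few counts in the control, whose fitted fold change depends on the added prior count.

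Most rises started from a low level. Of 1023 tested genes with a control mean under 1 CPM, 183 were higher (17.9%), and of 1239 genes at 1 to 10 CPM, 161 were (13%). The share was 1.94% at 10 to 100 CPM (81 of 4172 genes) and 0.221% at 100 CPM or more (4 of 1810). A gene with too few control reads to pass the filter was tested only if some other group expressed it. The lowest bin thus holds some genes already selected for being higher somewhere, and the shares are a description. Among the rises, the median log2 fold change was 3.84 in the lowest of these bins (3.12 with genes without control counts at their lower bound) and 1.84, 0.97 and 0.63 in the next. The lowest bin held no fall. There were 6 falls among the 1239 genes at 1 to 10 CPM. At 10 to 100 CPM there were 6 among 4172, and at 100 CPM or more 9 among 1810.

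The 15 largest rises among genes reaching 5 CPM were led by CG11052, cona, BigH1, CG14516 (superdeath), CG7166 and CG11674. cona encodes a central-region protein of the synaptonemal complex, which holds homologous chromosomes together in meiosis, and BigH1 the linker histone used in the germline and the early embryo. CG11052 (3R, 8008249 to 8009297) had no read in either control and 9.54 and 11.4 CPM in Lint-O KD, at least 65.1-fold higher against a floor of 3 counts per library (adjusted p = 3.66e-05). CG14516 (3R, 29138662 to 29145787) went from 2 counts over both controls to 6.24 and 8.02 CPM, 132.8 times the control (95% counting interval 36.4 to 1102, adjusted p = 7.76e-05). CG7166, with 0 and 0.104 CPM in the control, reached 3.35 and 8.08 CPM (ratio 106.5, interval 29.1 to 884.7, adjusted p = 0.00135). CG11674 rose from 0.111 and 0.104 to 8.59 and 9.07 CPM (log2 fold change 6.28, SE 0.363, adjusted p = 3.21e-05).

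Genes with known functions outside the germline stood beside these. Vdup1, an alpha-arrestin related to the thioredoxin-interacting protein, went from 0 and 0.208 to 6.08 and 6.08 CPM (log2 fold change 5.74, SE 0.531, adjusted p = 0.000239). Task7, a potassium leak channel, went from 0.222 and 0 to 6.497 and 5.45 CPM (5.71, SE 0.718, adjusted p = 0.00131). yellow-f2, a dopachrome conversion enzyme of the melanin pathway, went from 0.333 and 0.104 to 8.86 and 10.8 CPM (5.47, SE 0.397, adjusted p = 7.76e-05). The control values of all 3 lay near the level of a few reads, and both knockdown libraries were well apart from them. ocn, a testis-enriched gene, rose from 0.111 and 0.208 to 7.13 and 7.55 CPM (5.46, SE 0.410, adjusted p = 8.89e-05). CG6409 and CG13771 had log2 fold changes of 5.38 and 5.35. The DEAD-box helicase gene vas (2L, 15061656 to 15074311) and its neighbour CG33679 (2L, 15058303 to 15059120) were both among the 15. CG33679 rose from 0.222 and 0.104 to 5.34 and 6.14 CPM (5.10, SE 0.460, adjusted p = 0.000214), and vas from 1.55 and 1.25 to 54.4 and 71.9 CPM (5.49, SE 0.213, adjusted p = 7.64e-06). All 15 were called in every fit without 1 library.

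**Figure D2:**
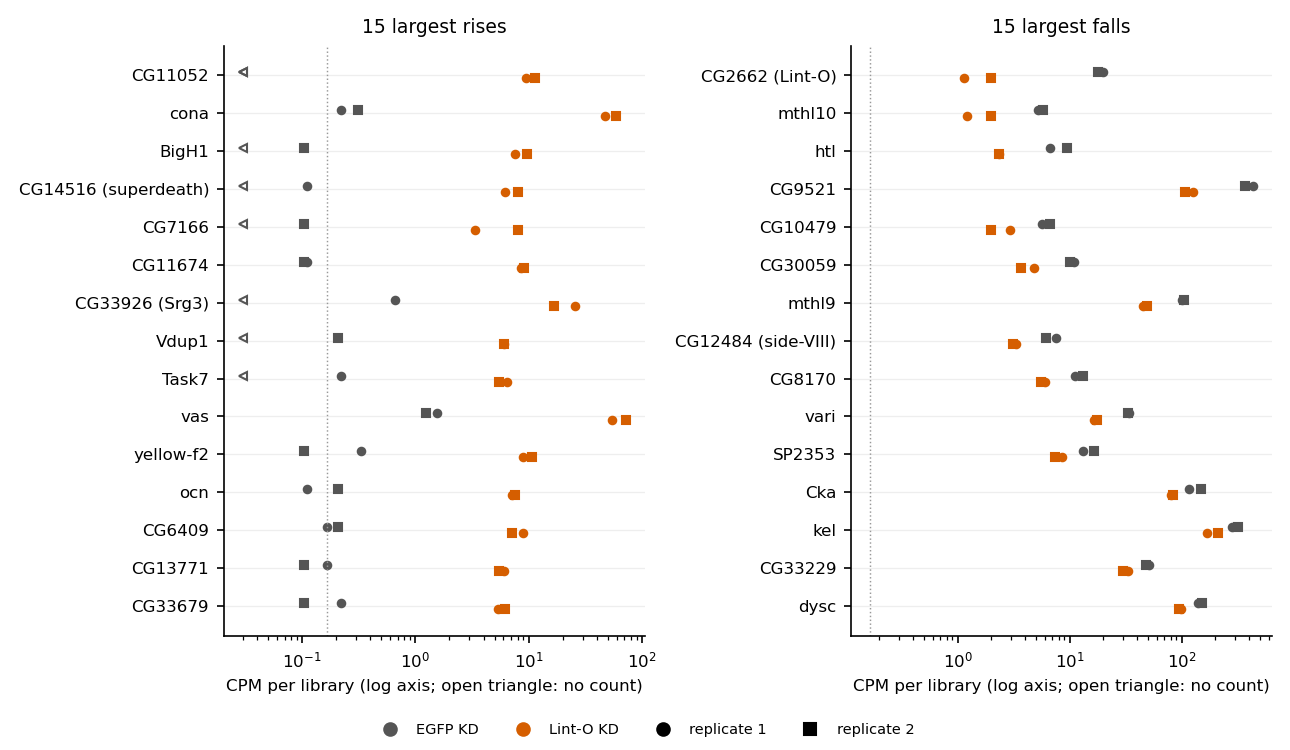
CPM in each library on a log axis for the 15 largest rises (left) and the 15 largest falls (right) among called genes that reach 5 CPM in a group, EGFP KD in grey and Lint-O KD in orange, circles for replicate 1 and squares for replicate 2. The dotted line is 3 counts in the shallowest library and open triangles mark libraries with no count. Only genes whose groups did not overlap were drawn. The distances between groups are shorter on the right, where CG2662 (Lint-O) has the widest.

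The falls were few, and 11 of the 21 were at least 2-fold. Apart from the target only 2 were called in every fit without 1 library. CG9521 (X, 14851005 to 14853269), of the GMC oxidoreductase family, fell from 433 and 365 to 127 and 107 CPM (log2 fold change -1.77, SE 0.184, adjusted p = 0.000445). mthl9 (3L, 329822 to 332309), a G protein-coupled receptor gene of the methuselah family, fell from 101 and 104 to 45.6 and 49.0 CPM (-1.12, SE 0.138, adjusted p = 0.00125). Its neighbour mthl10 went from 5.27 and 5.82 to 1.21 and 1.99 CPM (-1.79, adjusted p = 0.0359), and htl, a fibroblast growth factor receptor gene, from 6.65 and 9.46 to 2.36 and 2.36 CPM (-1.77, adjusted p = 0.0344). Whichever library was left out, neither of the last pair was called (adjusted p 0.0976 to 0.282 for mthl10 and 0.0652 to 0.246 for htl).

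The remaining falls were at low levels or by smaller amounts. CG10479, CG30059, CG12484 (side-VIII), CG8170 and SP2353 had control means of 6.18 to 14.8 CPM and log2 fold changes of -0.88 to -1.33. CG13422 (GNBP-like3) and Cyp4g15, a cytochrome P450 gene, were lower still in the control, at 2.95 and 1.13 CPM (-1.95 and -2.58). Cyp4g15 was not called with DESeq2 (0.0835), without the low-count filter (0.109) or with only the 4 compared libraries fitted (0.0618). The others fell by less than 2-fold. vari, a scaffold protein of septate junctions, went from 33.7 and 33.0 to 16.7 and 17.5 CPM (-0.96, adjusted p = 0.0177). Cka, the striatin of the STRIPAK phosphatase complex, went from 116 and 148 to 81.2 and 84.5 CPM (-0.67, adjusted p = 0.0249). betaTub60D, a beta-tubulin isotype, went from 251 and 261 to 185 and 185 CPM (-0.47, adjusted p = 0.0308), and cv-2, a secreted BMP-binding protein, from 150 and 168 to 110 and 117 CPM (-0.49, adjusted p = 0.0474). kel, CG33229, dysc, CG12065 and CG10444 had log2 fold changes of -0.47 to -0.66. Each gene named since htl lost its call in at least 1 fit without a library, CG13422 only without Lint-O KD 2. All but CG13422, CG30059 and Cka lost it whichever library was left out. For vari the adjusted p was 0.0695 to 0.139 in those fits, for betaTub60D 0.188 to 0.247 and for cv-2 0.142 to 0.378, and Cka was not called without replicate 1 (0.196) or 2 (0.154) of Lint-O KD or without EGFP KD 2 (0.240).

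A set of rises consisted of second copies of housekeeping genes. In 13 pairs, taken because their second copy rose and so chosen after its values were seen, none of the 13 parents was called (log2 fold changes -0.20 to 0.22, smallest adjusted p 0.514). Abundant genes were seldom called at all. At 100 CPM or more in the control, 4 of 1810 tested genes were higher and 9 lower. The lack of calls among abundant parents is therefore a description. eIF4E-6 (3R, 29026439 to 29027174), a cap-binding translation factor, rose from 0.443 and 0.416 to 9.90 and 12.4 CPM (4.68, SE 0.335, adjusted p = 7.53e-05), while its parent eIF-4E stood at 353 and 402 against 414 and 428 CPM. gammaTub37C, the maternal gamma-tubulin, had 2 counts in the control and reached 1.99 and 1.84 CPM (ratio 35.6, interval 9.52 to 300, adjusted p = 0.00183), while gammaTub23C stood at 86.9 and 80.5 against 86.4 and 86.5 CPM. Ef1alpha100E, a translation elongation factor, rose from 0.721 and 1.09 to 5.55 and 7.13 CPM (2.79, SE 0.322, adjusted p = 0.000802).

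Mitochondrial and proteasome subunits were among these copies. CG10396 (COX4L), a version of cytochrome c oxidase subunit IV, rose from 0.333 and 0.104 to 4.82 and 3.88 CPM (4.30, SE 0.459, adjusted p = 0.000519), and its parent CoIV stood at 615 and 553 against 625 and 523 CPM. ms(3)72Dt (ATPsynbetaL), a copy of the ATP synthase beta subunit needed for male fertility, rose from 0.222 and 0.208 to 2.99 and 3.41 CPM (3.86, SE 0.454, adjusted p = 0.000891). Prosbeta2R2, a proteasome beta subunit copy, rose from 8.76 and 7.38 to 45.9 and 34.1 CPM (2.31, SE 0.224, adjusted p = 0.000312). CG10262 (PCNA2), a copy of the replication clamp, rose from 0.998 and 0.520 to 3.83 and 4.67 CPM (2.48, SE 0.394, adjusted p = 0.00536), while PCNA stood at 295 and 315 against 330 and 315 CPM. skpB and Trf4-2, copies of a ubiquitin ligase adaptor and of a poly(A) polymerase, had log2 fold changes of 2.07 and 2.19.

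The ribosomal copies were already abundant in the control. RpS5b (3R, 14900432 to 14901563) rose from 168 and 140 to 388 and 320 CPM (1.20, SE 0.163, adjusted p = 0.00211), and RpS19b from 66.2 and 58.0 to 118 and 109 CPM (0.87, SE 0.151, adjusted p = 0.00869). They were the 2 rises among 21 tested members of ribosomal protein pairs, a share (9.52%) near that of all tested genes (5.2%). The calls of RpS19b ended without EGFP KD 2 (adjusted p = 0.0798) and without Lint-O KD 1 (0.0736), that of CG18193 (COX7AL; 0.887 and 0.208 to 4.51 and 3.88 CPM) without Lint-O KD 1 (0.0598), and that of the kinetochore gene Nnf1b (5.88 and 5.82 to 10.9 and 11.4 CPM) whichever of the 4 libraries was left out (0.168 to 0.229). The sources used here do not say how reads shared by near-identical copies were assigned, so the split within a pair is uncertain.

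**Figure D3:**
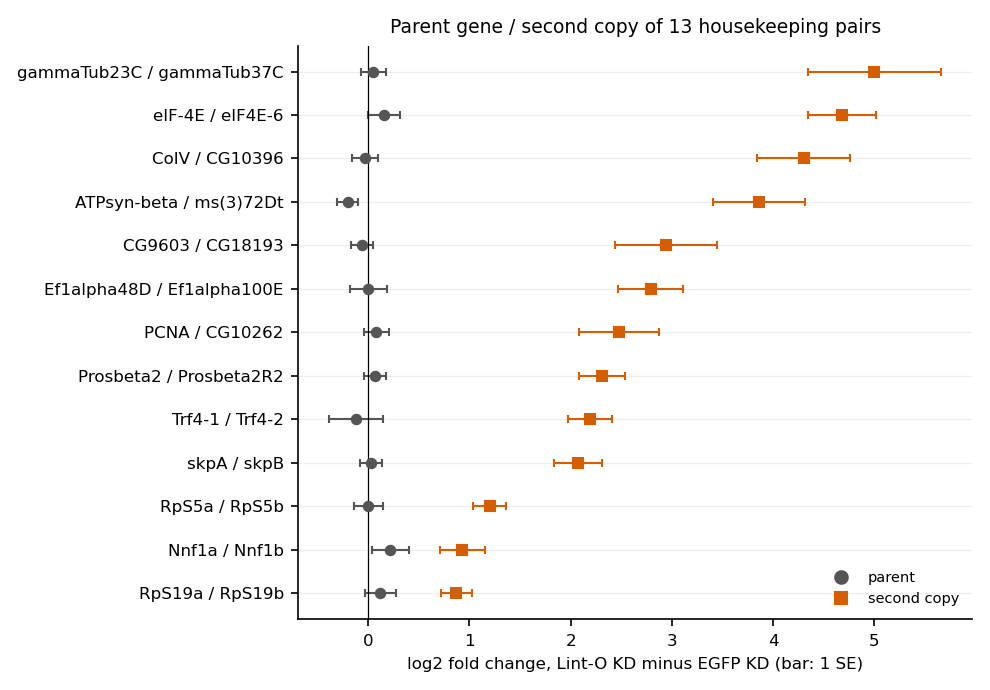
Log2 fold change in Lint-O KD against EGFP KD for the parent (grey circles) and the second copy (orange squares) of 13 housekeeping pairs, with bars of 1 SE from the fit. The parents lie between -0.20 and 0.22 and the second copies at 0.87 or above, and the pairs were listed because the second copy rose.

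Germline and meiotic genes beyond the largest rises were taken from lists, which were chosen with earlier results of these data known. Among all tested genes, 17.9% were higher at a control mean under 1 CPM and 13% at 1 to 10 CPM. The shares set beside 5.2% are therefore a description. Of 12 tested piRNA amplification factors, 6 were higher (50% against 5.2% of all tested genes). They were vas, aub, AGO3, qin, tej and CG9925. Of 8 tested dual-strand piRNA cluster factors, cuff and CG13741 were higher (25% against 5.2%). The calls of AGO3, qin, tej, CG9925, cuff and CG13741 ended in fits without 1 library. Of 28 germline identity and oogenesis genes counted, 23 had enough reads to be tested. Of the 23, 10 were higher (43.5%, against 5.2% of all tested genes) and none was lower. The germline regulators nos, bgcn and ovo were among the 10, with calls that ended in fits without 1 library. The list median was 1.39, but 0.16 with its 3 members that had no control count at their lower bound. gnu and png, of the kinase complex that starts the first embryonic divisions, both rose. gnu went from 0 and 0.208 to 4.03 and 3.41 CPM (5.04, SE 0.679, adjusted p = 0.00203) and png from 4.77 and 3.69 to 11.4 and 10.8 CPM (1.39, SE 0.233, adjusted p = 0.00714), but the call of png ended without EGFP KD 2 (0.0662) and Lint-O KD 1 (0.0540). exu, which acts in localising bicoid RNA, rose from 1.94 and 2.60 to 8.65 and 9.33 CPM (1.98, SE 0.238, adjusted p = 0.00103). The germline regulator bam was not called, at 7.87 and 10.7 against 11.7 and 17.0 CPM (0.63, adjusted p = 0.272).

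Of 28 meiosis genes counted, 24 had enough reads to be tested. Of the 24, 6 were higher (25% against 5.2% of all tested genes), with a list median of 0.10. They included 2 of the RING-domain proteins that mark recombination sites, CG2709 (vilya) and CG12200 (narya). CG2709 rose from 13.9 and 14.1 to 33.4 and 28.5 CPM (1.14, SE 0.155, adjusted p = 0.00211) and CG12200 from 2.72 and 2.03 to 7.18 and 7.34 CPM (1.61, SE 0.227, adjusted p = 0.00254). CG31053 (nenya), of the same family, stood at 0.665 and 0.728 against 2.78 and 2.67 CPM and was not called (1.96, adjusted p = 0.0645), though it was with DESeq2 (0.0381). The recombination gene hdm rose from 0.776 and 0.364 to 5.92 and 5.61 CPM (3.34, SE 0.314, adjusted p = 0.000272). The testis list, chosen in the same way, had 21 genes counted, of which 9 had enough reads to be tested. Of the 9, 3 were higher, ocn, tomb and mia (33.3% against the same 5.2%). tomb, of the testis meiotic arrest class, rose from 0.610 and 0.884 to 10.6 and 8.39 CPM (3.65, SE 0.295, adjusted p = 0.000125). mia went from 8.59 and 10.7 to 17.3 and 19.1 CPM (0.92, adjusted p = 0.0231), a call that ended whichever of the 4 libraries was left out (0.0522 to 0.176).

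Several oocyte genes outside the lists also rose and were chosen after their values were seen. tor, the receptor that patterns the ends of the embryo, went from 0.222 and 0.208 to 3.83 and 4.77 CPM (4.28, SE 0.465, adjusted p = 0.000575). fs(1)N, an eggshell protein that acts with it, went from 10.2 and 10.5 to 32.0 and 35.4 CPM (1.70, SE 0.140, adjusted p = 0.000136), and clos, another eggshell gene, from 1.11 and 0.728 to 6.497 and 6.502 CPM (2.82, SE 0.320, adjusted p = 0.000732). grk, the ligand that the oocyte sends to the follicle cells, rose from 2.16 and 3.48 to 9.69 and 9.54 CPM (1.76, SE 0.272, adjusted p = 0.00453). CG2678 (kipf), a zinc-finger protein that directs the piRNA factor Rhino to some of its source loci, rose from 3.38 and 4.004 to 13.1 and 11.6 CPM (1.74, SE 0.220, adjusted p = 0.00138). As in every rise, the lowest knockdown library was above the highest control library in all 5 genes. Their calls held whichever library was left out.

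Genes of cytosolic nucleic acid sensing formed another group. In flies the cGAS-like receptors make cyclic dinucleotides that activate Sting, which turns on antiviral genes. A set of 8 genes of this pathway was completed after values had been seen, and 6 had enough reads to be tested. Of the 6, 5 were higher (83.3% against 5.2% of all tested genes). Because of that choice the share is a description. The 5 calls held whichever library was left out. CG12970 (cGlr1, 2R, 15855961 to 15857522), a receptor for double-stranded RNA, had no read in the control and stood at 2.88 and 3.46 CPM in Lint-O KD, at least 19.7-fold higher (adjusted p = 0.000338). CG30424 (cGlr2) rose from 6.26 and 5.04 to 16.9 and 21.6 CPM (1.76, SE 0.211, adjusted p = 0.00101). CG1667 (Sting, 2R, 9842686 to 9845512) was well expressed in the control and rose from 17.4 and 16.2 to 42.3 and 49.3 CPM (1.45, SE 0.198, adjusted p = 0.00219).

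Among genes known to be induced downstream of Sting, CG11671 (Nazo) rose from 5.76 and 4.37 to 28.2 and 28.1 CPM (2.47, SE 0.222, adjusted p = 0.000212). CG33926 (Srg3, 3L, 9443232 to 9446388) rose from 0.665 and 0 to 25.8 and 16.9 CPM (6.02, SE 0.665, adjusted p = 0.000611). The NF-kappaB gene Rel stood at 102 and 120 against 101 and 112 CPM and was not called (-0.06, adjusted p = 0.992). CG13641 (Srg1) and CG42825 (Srg2) had too few reads to be tested, with no read in either Lint-O KD library. The wider innate immunity list had 25 genes counted, of which 15 had enough reads to be tested. Of the 15, 3 were higher (20% against 5.2% of all tested genes), with a median of 0.03. They were cGlr1, Sting and the drosomycin-like peptide gene Drsl5, which went from no read to 2.52 and 2.52 CPM, at least 15.6-fold higher (adjusted p = 0.000830).

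The extracellular cascade upstream of the Toll receptor was also completed after values had been seen, so its share is a description. Of its 18 genes counted, 15 had enough reads to be tested. Of the 15, 6 were higher (40% against 5.2% of all tested genes). The recognition protein genes GNBP2 and GNBP3 rose from 34.9 and 34.1 to 77.8 and 69.1 CPM (1.09, SE 0.150, adjusted p = 0.00226) and from 49.9 and 47.3 to 109 and 105 CPM (1.14, SE 0.116, adjusted p = 0.000400). ea, the protease that cleaves the Toll ligand in the embryo, rose from 30.1 and 29.9 to 83.9 and 76.3 CPM (1.42, SE 0.143, adjusted p = 0.000383). These genes were clearly expressed in the control, with each knockdown library at least as far above the controls as the controls were from each other. The proteases modSP and spirit and the serpin Spn88Ea were the other 3, with log2 fold changes of 0.63, 2.66 and 0.67. The call of modSP ended whichever library was left out (0.0766 to 0.269), that of spirit without EGFP KD 1 (0.0527) and that of Spn88Ea without EGFP KD 2 (0.127) and Lint-O KD 1 (0.0926). Toll itself (Tl), at 14.6 and 15.6 against 11.1 and 15.5 CPM, and its ligand gene spz, at 0.776 and 1.98 against 0.943 and 1.10 CPM, were not called.

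Cilium genes were assembled in the same way, so their share is a description too. Of 33 counted, 24 had enough reads to be tested. Of the 24, 7 were higher (29.2% against 5.2% of all tested genes). Among them CG9170, unc and CG3121 lost their calls in fits without 1 library. Osm6 (IFT52, 2L, 6555717 to 6557502), a subunit of the intraflagellar transport particle, rose from 0.499 and 0.728 to 14.3 and 15.4 CPM (4.58, SE 0.260, adjusted p = 3.17e-05). CG30441 (IFT20), another subunit, rose from 1.94 and 1.66 to 6.86 and 6.08 CPM (1.84, SE 0.259, adjusted p = 0.00254). CG10859, a predicted axonemal dynein intermediate chain, rose from 4.88 and 5.15 to 52.8 and 52.6 CPM (3.39, SE 0.145, adjusted p = 8.96e-06). The kinesin gene Klp54D rose from 0.887 and 1.25 to 11.2 and 11.9 CPM (3.42, SE 0.238, adjusted p = 7.4e-05). Other transport subunits were not called, among them Oseg1 (5.10 and 3.80 against 3.72 and 5.72 CPM) and rempA (20.7 and 23.8 against 24.2 and 29.0 CPM). Rfx, a transcription factor of ciliated neurons, stood at 5.65 and 7.07 against 8.75 and 11.6 CPM (0.68, adjusted p = 0.190), though it was called with the gene-span trend removed (0.0463).

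Genes best known from neurons and sense organs were present among the rises as well, again picked after their values were seen. nAChRbeta3, a nicotinic acetylcholine receptor subunit, rose from 0.166 and 0.364 to 7.76 and 7.39 CPM (4.79, SE 0.328, adjusted p = 7.05e-05). Rh4, an ultraviolet-sensitive opsin of the eye, rose from 0.166 and 0.832 to 12 and 15.2 CPM (4.73, SE 0.427, adjusted p = 0.000214). Ir40a, an ionotropic receptor used in humidity sensing, rose from 12.4 and 11.1 to 35.0 and 38.8 CPM (1.65, SE 0.159, adjusted p = 0.000309). The neuronal and neural progenitor marker lists held no edgeR call. None of 6 tested neuronal markers and none of 5 tested progenitor markers was called by edgeR, with 2 and 1 at an unadjusted p under 0.05 and 1 and 0 called by DESeq2. The log2 fold changes of the neuronal markers ran from -1.96 to 3.63. cac, a presynaptic calcium channel, stood at 3.88 and 6.81 against 10.4 and 12.1 CPM (1.07, adjusted p = 0.0711). It was called with DESeq2 (0.00957), with upper-quartile scaling (0.0461), without the low-count filter (0.00791), without EGFP KD 2 (0.0252) and with the gene-span trend removed (0.00411). elav, the defining neuronal marker, stood at 17.2 and 23.7 against 16.5 and 23.1 CPM.

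Markers of the cells themselves were not called. The follicle cell list had no call among 17 tested genes, with 0 at an unadjusted p under 0.05 and 0 called by DESeq2. tj, a transcription factor that defines the ovarian soma, stood at 216 and 300 against 240 and 297 CPM, and the adhesion gene Fas3 at 24.1 and 27.6 against 25.2 and 26.3 CPM. None of 20 somatic piRNA factors was called (1 at an unadjusted p under 0.05, DESeq2 0). piwi stood at 581 and 691 against 486 and 651 CPM (-0.16, adjusted p = 0.915), and fs(1)Yb, which defines the somatic piRNA bodies, at 236 and 221 against 223 and 227 CPM. tj differed more between replicates of 1 group than between the group means.

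Several lists held no call or a single one. With 5.46% of all tested genes called, lists of this size would hold few calls or none at that share, so these counts are a description. Genes of the LINT and dREAM repressor complexes showed no call among 20, with 0 at an unadjusted p under 0.05, 0 called by DESeq2 and log2 fold changes of -0.33 to 0.20. The corepressor gene CoRest stood at 165 and 169 against 156 and 173 CPM. None of 30 replication and cell cycle genes was called (1 at an unadjusted p under 0.05, DESeq2 0), nor any of 17 Hippo pathway genes (2, DESeq2 0), 14 insulator proteins (2, DESeq2 0), 10 siRNA and miRNA factors (1, DESeq2 0), 13 ecdysone genes (1, DESeq2 0), 10 JAK/STAT genes (0, DESeq2 0) or 14 sex determination genes (0, DESeq2 0). Markers of other cell types gave none of 10 muscle genes (1, DESeq2 0), none of 5 hemocyte genes (2, DESeq2 0) and none of 6 fat body and yolk genes (3, DESeq2 1). Further lists held a single call each, heat shock (4, DESeq2 1), p53 and apoptosis (2, DESeq2 1) and basement membrane (5, DESeq2 2). In the last, Mmp1 was not called in the fit by group alone. It was lower (log2 fold change -0.78) and called with DESeq2 (0.0237), without the low-count filter (0.0288), in the 4 compared libraries alone (0.0488) and with the gene-span trend removed (0.0442). Among 15 heat shock genes only Hsp68 was higher, at 31.6 and 33.9 against 55.4 and 62.9 CPM (0.85, adjusted p = 0.00705), and not without EGFP KD 1 (0.0546) or Lint-O KD 2 (0.0572). Among 11 p53 and apoptosis genes only p53 was, at 36.9 and 37.2 against 55.6 and 52.6 CPM (0.55, adjusted p = 0.0406), and among 19 basement membrane genes only Plod, a collagen-modifying enzyme, at 44.3 and 42.7 against 59.5 and 68.4 CPM (0.55, adjusted p = 0.0444). Neither of these passed, whichever library was left out (0.126 to 0.233 for p53 and 0.108 to 0.320 for Plod).

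A pair of gene families held members that moved in opposite directions. The methuselah list had 17 genes counted, of which 12 had enough reads to be tested. Of the 12, mthl7 and mthl14 were higher (16.7% against 5.2% of all tested genes). mthl9 and mthl10 were lower (16.7% against 0.255% of all tested genes). mthl14 (3L, 247491 to 250305) rose from 1.39 and 1.14 to 8.23 and 12.9 CPM (3.06, SE 0.328, adjusted p = 0.000528). mthl7 went from 0.665 and 0.416 to 2.83 and 2.15 CPM (2.20, adjusted p = 0.0145), a call that ended without EGFP KD 2 (0.115) and Lint-O KD 1 (0.0967). mthl9, mthl10 and mth lie side by side on 3L within the span of Ptpmeg (328097 to 356050). mth, the founding member, stood at 9.15 and 7.85 against 7.13 and 9.02 CPM (-0.07, adjusted p = 0.986), and Ptpmeg at 48.3 and 44.6 against 57.0 and 60.8 CPM (0.34, adjusted p = 0.290). Of 15 GMC oxidoreductases counted, 7 had enough reads to be tested. Of the 7, 2 were higher (28.6% against 5.2% of all tested genes) and 1 was lower (14.3% against 0.255%). ninaG, an enzyme of the visual pigment pathway, rose from 0.222 and 0.156 to 2.20 and 1.42 CPM (3.22, SE 0.518, adjusted p = 0.00578) while CG9521 fell. Eo also rose, from 0.277 and 0.104 to 1.10 and 1.63 CPM (2.81, adjusted p = 0.0369), a call that ended whichever of the 4 libraries was left out (0.0837 to 0.235).

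By chromosome, the small chromosome 4 had the highest share of rises among the arms. It is rich in heterochromatin-like chromatin interspersed with active genes. There 14 of 80 tested genes were higher (17.5%), against 5.2% of all tested genes and 4.32% to 5.5% on the other arms, and none was lower. The count was 18 with DESeq2, and 9 to 11 with 1 library left out. Its genes were also more often weakly expressed, with 40% under 10 CPM on average over the 8 libraries against 26% of all tested genes. Under 10 CPM, 10 of 32 chromosome 4 genes were higher (31.2%) against 229 of 2112 elsewhere (10.8%). At 10 CPM or more the shares were 4 of 48 (8.33%) and 186 of 6052 (3.07%). These shares were not tested against each other.

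The genes concerned on chromosome 4 ranged from silent to moderately expressed in the control. Actbeta, a ligand of the activin family, had no read there and 1.153 and 0.839 CPM in Lint-O KD, at least 6.18-fold higher (adjusted p = 0.00834), though not called without Lint-O KD 1 (0.0512). CG31997 (154654 to 156060) rose from 0.776 and 0.624 to 12.4 and 14.0 CPM (4.22, SE 0.335, adjusted p = 0.000112). Syt7, a synaptotagmin of membrane fusion, rose from 0.222 and 0.208 to 5.14 and 5.09 CPM (4.53, SE 0.428, adjusted p = 0.000274). CG9935 (Ekar), a kainate-type glutamate receptor, had 2 counts in the control and reached 3.25 and 3.93 CPM (ratio 66.9, interval 18.2 to 558.1, adjusted p = 0.000579). CG11155 rose from 2.00 and 1.20 to 12.8 and 14.2 CPM (3.08, SE 0.281, adjusted p = 0.000225). Its span overlaps that of CG32017, which was also called, so their reads may not be separable.

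Neighbouring tested genes seldom rose together in runs. Only 2 runs of 3 or more adjacent tested genes were called higher, and no run was lower. On chromosome 4 the run of yellow-h, CG1674, dpr7 and RhoGAP102A spanned 227922 to 265574. yellow-h rose from 2.77 and 2.60 to 16.5 and 22.5 CPM (2.86, SE 0.234, adjusted p = 0.000136) and CG1674 from 5.88 and 7.59 to 23.2 and 33.3 CPM (2.06, SE 0.280, adjusted p = 0.00211). dpr7 and RhoGAP102A had log2 fold changes of 2.25 and 1.53, and their calls ended in fits without 1 library. For dpr7 this was so whichever was left out (0.0898 to 0.173), and for RhoGAP102A without Lint-O KD 2 (0.184) and without replicate 1 (0.0936) or 2 (0.158) of EGFP KD. On 2R the run of Unc-89, CG4324 and CG3121 (Rsph4a) spanned 23995543 to 24019896. Unc-89, a giant muscle protein kinase, rose from 0.831 and 1.25 to 5.29 and 6.14 CPM (2.45, SE 0.304, adjusted p = 0.00125), CG4324 from 1.05 and 1.40 to 6.76 and 8.65 CPM (2.64, SE 0.328, adjusted p = 0.00125) and CG3121 from 0.111 and 0.260 to 0.943 and 1.57 CPM (2.71, adjusted p = 0.0420). The call of CG3121 ended whichever of the 4 libraries was left out (0.0776 to 0.269).

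**Figure D4:**
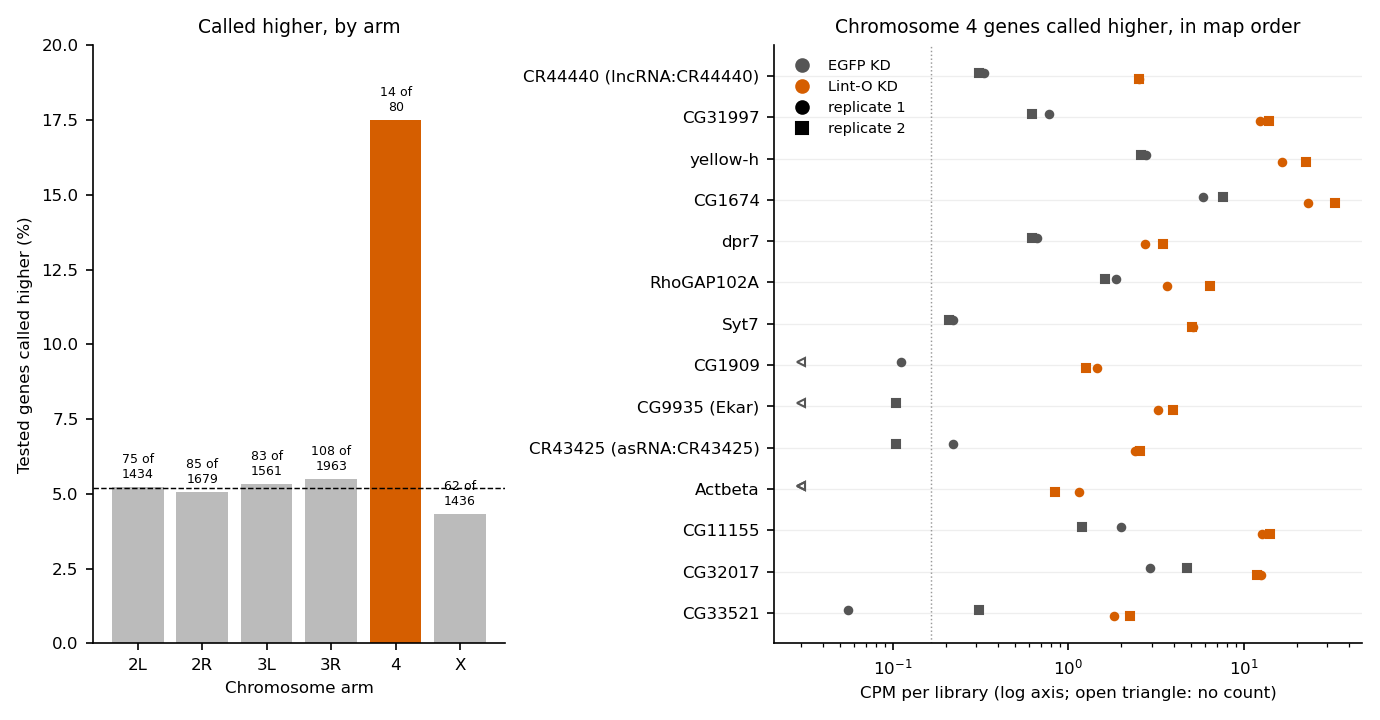
Left, percent of tested genes called higher in Lint-O KD on each chromosome arm, with the counts above the bars and the share over all genes (5.2%) as a dashed line. Right, CPM in each library on a log axis for the 14 chromosome 4 genes called higher, in map order, with a dotted line at 3 counts and open triangles for no count; chromosome 4 reaches 17.5% and the other arms 4.32% to 5.5%.

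Gene span had a weaker relation with the calls. In 5 bins of equal gene number, 5.4%, 5.89%, 7.06%, 4.23% and 3.62% were higher from the shortest spans to the longest. The median log2 fold change went from 0.06 in the shortest bin to -0.10 in the longest, and 11 of the 21 falls were in the longest. With that trend removed from each library, 473 genes were higher, which included 426 of the 429, and 15 of the 21 falls were still called.

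Lint-O KD was then set directly against each of the other knockdowns, in the same fit and without the control. Against L(3)mbt KD 58 of 8244 genes were called (0.704%), 3 higher (0.0364%) and 55 lower (0.667%). Against Lint-1 KD 97 were called (1.18%), 22 higher (0.267%) and 75 lower (0.91%). DESeq2 gave 20 higher and 226 lower against L(3)mbt KD, and 95 higher and 200 lower against Lint-1 KD, and at an unadjusted p under 0.05 there were 1206 and 1452 genes in all. With 1 library left out the counts against L(3)mbt KD were 0 to 35 higher and 1 to 83 lower, and those against Lint-1 KD 2 to 7 higher and 3 to 18 lower, so few single calls held.

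Genes lower in Lint-O KD than in both other knockdowns included oocyte genes. yl, the yolk receptor of the oocyte, had no read in the control, 0.105 and 0 CPM in Lint-O KD, 1.501 and 2.62 CPM in L(3)mbt KD and 7.86 and 4.82 CPM in Lint-1 KD. The difference from Lint-1 KD had an adjusted p of 0.00851 and that from L(3)mbt KD one of 0.0446, and both were lost without either Lint-O KD library (up to 0.121 and 0.322). hebe had no read in the control, 0.629 and 0.315 CPM in Lint-O KD, 7.40 and 7.25 CPM in L(3)mbt KD and 10.3 and 10.4 CPM in Lint-1 KD. Its difference from Lint-1 KD (log2 -4.44, SE 0.351, adjusted p = 0.00148) held whichever library was left out. That from L(3)mbt KD (-3.94, SE 0.353, adjusted p = 0.00424) did not hold without either Lint-O KD library (up to 0.0659). swa, needed to localise bicoid RNA in the egg, stood at 0.734 and 1.52 CPM in Lint-O KD, 8.75 and 9.36 CPM in L(3)mbt KD and 11.95 and 12.2 CPM in Lint-1 KD (adjusted p = 0.0140 and 0.00497). Against L(3)mbt KD that call ended without either Lint-O KD library (up to 0.145), and against Lint-1 KD without Lint-O KD 1 (0.0702).

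Other genes lay above the control libraries in all 3 knockdowns and lowest of these in Lint-O KD. CG14516 stood at 6.24 and 8.02 CPM in Lint-O KD, 28.9 and 37.9 CPM in L(3)mbt KD and 54.2 and 58.5 CPM in Lint-1 KD (adjusted p = 0.00842 and 0.00128 for the differences). KFase, an enzyme of tryptophan breakdown chosen after its values were seen, stood at 4.401 and 5.24, 20.9 and 27.8, and 41.6 and 42.3 CPM in the same order, and at 2.49 and 1.98 CPM in the control. Its rise in Lint-O KD against the control (log2 1.11, SE 0.238, adjusted p = 0.0269) ended whichever library was left out (0.0586 to 0.205) and with only the 4 compared libraries fitted (0.0979). Its difference from Lint-1 KD (log2 -3.12, SE 0.219, adjusted p = 0.000442) held whichever library was left out, and that from L(3)mbt KD (-2.33, SE 0.215, adjusted p = 0.00365) ended without either Lint-O KD library (up to 0.104). RpS5b, at 388 and 320 CPM in Lint-O KD, reached 1120 and 1460 CPM in L(3)mbt KD (-1.87, SE 0.165, adjusted p = 0.00365). The call of CG14516 against L(3)mbt KD ended without either Lint-O KD library (up to 0.206) and against Lint-1 KD without Lint-O KD 1 (0.0650), and that of RpS5b without either Lint-O KD library (up to 0.0659).

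The reverse was seen against Lint-1 KD. vas stood at 54.4 and 71.9 CPM in Lint-O KD and at 12.1 and 12.5 CPM in Lint-1 KD (log2 2.36, SE 0.170, adjusted p = 0.000442), a difference that held whichever library was left out. cona stood at 47.5 and 59.6 against 16.5 and 10.2 CPM (2.00, SE 0.241, adjusted p = 0.00790). CG8745 stood at 7.86 and 9.28 CPM in Lint-O KD, 1.86 and 1.89 CPM in Lint-1 KD and 2.16 and 2.18 CPM in the control (2.19, SE 0.286, adjusted p = 0.00902). CG7166, at 3.35 and 8.08 against 1.02 and 0.576 CPM, and CR31451 (lncRNA:mimi), at 4.19 and 8.44 against 1.40 and 1.36 CPM, had log2 differences of 2.81 and 2.19 (adjusted p = 0.0490 and 0.0395). Apart from vas these calls were lost in at least 3 of the 4 fits without 1 library (up to 0.120 for cona, 0.124 for CG8745, 0.390 for CG7166 and 0.311 for CR31451).

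Against L(3)mbt KD the 3 genes that were higher were l(3)mbt itself, mth and mthl9. mthl9 stood at 45.6 and 49.0 CPM in Lint-O KD, 15.2 and 18.4 CPM in L(3)mbt KD and 101 and 104 CPM in the control (1.49, SE 0.143, adjusted p = 0.00405). mth stood at 7.13 and 9.02 CPM in Lint-O KD, 2.23 and 1.80 CPM in L(3)mbt KD and 9.15 and 7.85 CPM in the control (2.00, SE 0.247, adjusted p = 0.0140). The targets Lint-O and Lint-1 differed in the direction of their labels. Without either Lint-O KD library the calls of mthl9 (up to 0.0659), mth (up to 0.127) and l(3)mbt (up to 0.0706) ended.

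**Figure D5:**
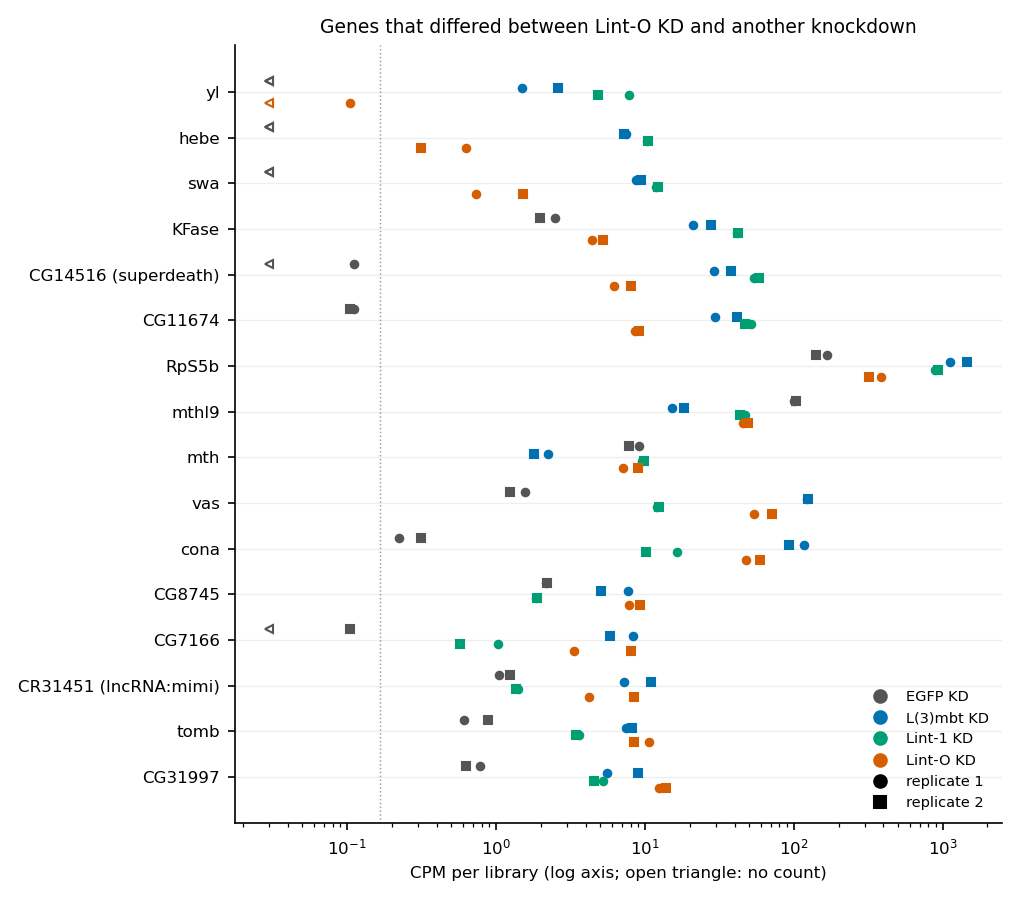
CPM in each of the 8 RNA libraries on a log axis for 16 genes called between Lint-O KD and L(3)mbt KD or Lint-1 KD, with EGFP KD in grey, L(3)mbt KD in blue, Lint-1 KD in green and Lint-O KD in orange, circles for replicate 1 and squares for replicate 2, a dotted line at 3 counts and open triangles for no count. From yl to RpS5b Lint-O KD lies below both other knockdowns, and from vas to CG31997 it lies above Lint-1 KD.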

How the data were processed

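Stranded libraries of polyadenylated RNA were sequenced, per the labels' protocols. The authors deposited raw read counts per gene, and the submitters' processing notes name HISAT2, HTSeq and edgeR and the build dm6. Versions, annotation and strand setting: not given in the sources used here. The table's 16732 entries included 5 special lines of the counter, which were dropped. Between 14.96% and 18.51% of a library's reads fell on no gene and 1.051% to 1.127% were ambiguous. The 8 libraries held 18293791 to 20978039 reads on genes. Floors (3 counts) and exact 95% intervals describe counting error alone, since there were no molecular identifiers.

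The test was edgeR 4.0.16 in R 4.3.3, with filterByExpr, TMM (factors 0.9483 to 1.056), glmQLFit on the 8 libraries by group with no covariate, glmQLFTest and Benjamini-Hochberg adjustment over 8244 genes at a threshold of 0.05. It had 4 residual degrees of freedom and a biological coefficient of variation of 15.43%. The SE is the absolute log2 fold change over the square root of F. The procedure was tested on simulated counts. Replicates were more different than sampling allows (chi-square over its degrees of freedom 22.2 to 53.06), so none was merged.

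Symbols were matched to RefSeq's dm6 gene table, 12512 as current, 3996 through a synonym and 219 to no single gene. Positions are of whole genes. The members, the 29 gene lists and the naming rule were chosen with earlier results of these data known. The rule took the 3 targets, the 15 largest rises and falls (called, reaching 5 CPM, groups not overlapping), called list members, the 5 largest rises and falls of each direct contrast, and runs of 3 or more called neighbours. Some were left out for space. The paralogue, oocyte, Sting, Toll, cilium and neuronal groups were chosen after values were seen. Alternatives covered scaling (upper-quartile, or the size factors of DESeq2), the test (Wald, DESeq2 1.42.0), the low-count filter (none, or 1 CPM in 2 libraries with 50 counts in total), fitting the 4 compared libraries alone, a replicate block, a 2-fold minimum, leaving out each library, and removing a lowess trend (span 0.3) with gene span. Promoter sequences were not analysed here.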

Additional observations from a re-analysis of the deposited data

How the results depend on the processing

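Among the alternatives tried, no named gene changed sign with a call in either fit. Against EGFP KD the 429 rises became 261 to 278 with 1 library left out. The 21 falls became 34 with DESeq2, 32 without the low-count filter, 11 at 2-fold or more and 3 to 6 with 1 library left out. Against L(3)mbt KD the 3 higher genes became 20 with DESeq2, 26 without that filter, 7 after removing the trend with gene span and 0 to 35 with 1 library left out, and the 55 lower ones 226, 255, 103 and 1 to 83, and 32 with only the 4 compared libraries fitted. Against Lint-1 KD the 22 higher genes became 95, 146, 51 and 2 to 7, and 174 in the 4 libraries alone, and the 75 lower ones 200, 244, 118, 3 to 18 and 237 in the same order. The cause of these moves was not tested, except that a left-out library leaves fewer samples.

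The labels number the replicates but do not say what a number shares. Over 6642 genes the difference of replicate 1 minus 2 in Lint-O KD had a correlation of 0.558 with that in EGFP KD, -0.560 with that in L(3)mbt KD and -0.415 with that in Lint-1 KD. With the number as a block over all 8 libraries, 333 genes were higher and 6 lower against EGFP KD, 8 lower against L(3)mbt KD, and 9 higher and 24 lower against Lint-1 KD. In blocks over only the 4 libraries compared, an alternative chosen after seeing the data, the counts were 876 and 616 against EGFP KD (58.7% rises, against 95.3% without a block and 98.2% with the block over 8 libraries) and 8 and 97 against L(3)mbt KD, and 64 higher against Lint-1 KD. With crossed numbers they were 120 and 317 against L(3)mbt KD and 1152 and 980 against Lint-1 KD, where higher genes then outnumbered lower ones.

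Depth limits the genes without control reads, whose folds are lower bounds.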
